A study of Mus musculus with 24 samples.

Results

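The muscle-enriched microRNAs (miRNAs) mmu-miR-1a-3p, mmu-miR-133a-3p, mmu-miR-133b-3p, mmu-miR-206-3p and mmu-miR-499-5p (named without the mmu prefix from here on) were followed in serum and liver of mice on a diet that produces non-alcoholic steatohepatitis (NASH). They were chosen by name, by an exact match of the miRNA name in the array files. They are 5 of the 1881 mouse miRNAs on the array, with 2 probes per member and 15 spots per probe. All arrays were 1-colour Agilent miRNA arrays labelled with Cy3. The animals were male C57BL/6NJcl mice, obtained at 5 weeks of age and acclimatized for 1 week. The NASH groups then ate CDAHFD, a high-fat diet without choline, whose amino acids are defined and include 0.1% methionine, and the control groups ate the chow CE-2. Mice were sampled after 1, 2 or 6 weeks of diet, at 7, 8 and 12 weeks of age. Serum was prepared from blood of the heart. There were 2 arrays for each tissue, diet and week, 24 in all, and whether the 2 arrays came from separate mice or from pools is not given in the sources used here. All p-values are therefore relative to the spread among arrays, part of which may be technical.

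miRNAs are short RNAs that guide a silencing complex to messenger RNAs, mainly through the seed near their 5′ end. miR-1 and miR-133 are made together in heart and skeletal muscle, where miR-1 favours differentiation and miR-133 favours proliferation of muscle precursors. miR-206 is a skeletal muscle relative of miR-1 with the same seed, and miR-499 is made from within a slow and cardiac myosin gene. Muscle cells release these miRNAs into blood when they are damaged, and their serum levels are used as markers of muscle injury. Hepatocytes make little of them.

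The mature sequences below are those of the members found in the RefSeq table (3 of 5), and of the heart miRNAs miR-208a-3p and miR-208b-3p, which serve as a heart reference for miR-499-5p. Capitals mark the seed, bases 2 to 8. The members shown carry different seeds, and the heart references share a seed with each other only.
miR-133b-3p: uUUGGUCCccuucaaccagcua
miR-206-3p: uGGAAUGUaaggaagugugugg
miR-499-5p: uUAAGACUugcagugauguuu
miR-208a-3p: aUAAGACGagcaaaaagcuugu
miR-208b-3p: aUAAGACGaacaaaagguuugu
On GRCm38.p6, miR-206-3p lies at chr1:20679055-20679076 and miR-133b-3p at chr1:20682834-20682855, both on the + strand. Mir206 and Mir133b are neighbouring genes, and both overlap Lincmd1, a muscle long noncoding RNA. miR-499-5p lies at chr2:155622893-155622913 on the + strand, within the myosin heavy chain gene Myh7b. miR-208a-3p (chr14:54949072-54949093) and miR-208b-3p (chr14:54975710-54975731) lie on the - strand within Myh6 and Myh7, the cardiac myosin heavy chain genes.

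In serum, miR-133a-3p and miR-133b-3p were lower on the NASH diet, by 4.54-fold and 4.53-fold as the mean over the 3 weeks. In 3 alternatives given below neither passed the test, among them the fit that pairs arrays by replicate number. miR-1a-3p, miR-206-3p and miR-499-5p did not pass the test. In liver, no member was detected on more than 1 of 12 arrays. The count of 2 of 5 members called lower in serum stands beside 59 of the 426 miRNAs tested, or 13.8% (18.8% in either direction). The miR-133 pair counts as a single measurement, for the reason given with miR-133b-3p.

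The spot signal of miR-133a-3p, averaged over the spots of its brightest probe and corrected for background by the scanner software, was high on every serum array. After 1 week the control arrays read 1847 and 5054 and the NASH arrays 1611 and 1124. After 2 weeks the control arrays read 2675 and 805 and the NASH arrays 502 and 1184. After 6 weeks the control arrays read 1447 and 1446 and the NASH arrays 434 and 275. These unscaled intensities separated the diets at weeks 1 and 6 and overlapped at week 2, where control replicate 2 was below NASH replicate 2. With 2 arrays against 2, such a separation can easily arise by chance, and its share over all miRNAs was not counted.

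Arrays differed in brightness, so each was divided by the 75th percentile of the probes well above background on all 12 serum arrays, and log2 was taken. Scaled in this way, the 6 control arrays of miR-133a-3p ran from 2.34 to 3.53 and the 6 NASH arrays from -0.58 to 1.63. All NASH arrays lay below all control arrays, which held for 19 of the 426 miRNAs tested (4.46%). The group means, as log2 scaled levels with their SD over 2 arrays, were 2.65 ± 0.45, 3.01 ± 0.75 and 3.00 ± 0.11 in controls at weeks 1, 2 and 6. In NASH they were 1.24 ± 0.40, 0.99 ± 0.91 and -0.11 ± 0.66. The 3 control groups differed by less than their spread, and so did NASH weeks 1 and 2. NASH week 6 had the lowest mean, and its arrays overlapped with those of NASH week 2.

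The diet difference of miR-133a-3p, NASH minus control as a mean over weeks, was -2.18 on the log2 scale (SE 0.34, 95% interval -2.99 to -1.38, limma adjusted p = 0.00604). Each of the 6 NASH arrays lay below the control mean of its week, as for 18.3% of the miRNAs tested. An exact permutation test (two-sided, with diet labels exchanged inside each week) gave p = 0.00926, the smallest this exchange can give. The exchange does not use the pairing of arrays by replicate number. Ordered by their difference, miR-133a-3p was number 3 and miR-133b-3p number 4 from the lowest of 426 miRNAs, whose median difference was -0.11. On control replicate 2 of week 1 the scanner software marked 3389 spots as outliers, against 1384 to 1722 on the other 23 arrays. Without that array the difference was -2.08 (adjusted p = 0.0212). The call was lost in 3 alternatives. The difference was -1.50 (adjusted p = 0.118) with the percentile taken over all probes, most of them at background, and -1.39 (adjusted p = 0.0792) with no scaling. With the replicate number as a block it was -2.31 (adjusted p = 0.132), a fit on 11 arrays that leaves 2 residual degrees of freedom and calls 24 miRNAs in all.

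miR-133b-3p followed miR-133a-3p array by array. Its intensities were 2923 and 7914 in controls against 2523 and 1796 in NASH at week 1, and 4056 and 1289 against 785 and 1910 at week 2. At week 6 they were 2332 and 2260 against 681 and 424. As log2 scaled levels the controls ran from 3.00 to 4.13 and the NASH arrays from 0.05 to 2.32, again with no overlap. The diet difference was -2.18 (SE 0.33, limma adjusted p = 0.00604). Within an array, log2 miR-133b-3p minus log2 miR-133a-3p varied with an SD of 0.03 over the 12 arrays, against an SD of 1.30 for miR-133a-3p itself. The mature miRNAs are nearly identical and differ at the 3′ end, so the array does not tell their signals apart. The second, dimmer probe of each gave the same picture, with a difference of -2.14 for miR-133a-3p and -2.12 for miR-133b-3p, both with an exact permutation p of 0.00926. Spots of a miR-133a-3p probe on 1 array had a median coefficient of variation of 3.27%, far below the spread between arrays.

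miR-1a-3p, which comes from the same primary transcripts as miR-133a, was not called over weeks. The ratio of miR-133a-3p to it, given below, did not pass a test of diet. After 1 week the intensity of miR-1a-3p was 214 and 1047 on the control arrays and 263 and 1083 on the NASH arrays. After 2 weeks it was 48.7 and 26.6 in controls and 26.4 and 257 in NASH. After 6 weeks it was 226 and 204 in controls and 59.7 and 47.0 in NASH. The diets overlapped at weeks 1 and 2 and separated at week 6, again as 2 arrays against 2 and without a share over all miRNAs. Arrays of the same group could also lie far apart, as NASH replicates 1 and 2 did at week 2.

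As log2 scaled levels, miR-1a-3p ran from -2.44 to 0.70 in controls and from -3.90 to 0.90 in NASH. The group means were -0.04 ± 1.04, -2.34 ± 0.14 and 0.25 ± 0.21 (SD, n = 2) in controls at weeks 1, 2 and 6, and -0.10 ± 1.41, -2.24 ± 2.36 and -2.81 ± 0.44 in NASH. The low groups were both diets at week 2 and NASH at week 6, and their means lay within 0.58 of each other, less than the pooled SE of a difference between groups (1.17). The diet difference over weeks was -1.01 (SE 0.67, 95% interval -2.62 to 0.61, limma adjusted p = 0.423, exact permutation p = 0.25), with 4 of 6 NASH arrays below the control mean of their week. That interval spans a larger fall than that of miR-133a-3p as well as a rise. Where only miRNAs detected on all 12 arrays were tested, the same difference had an adjusted p of 0.0366. The dimmer miR-1a-3p probe, well above background on 7 of 12 arrays, gave -0.35.

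**Figure D1:**
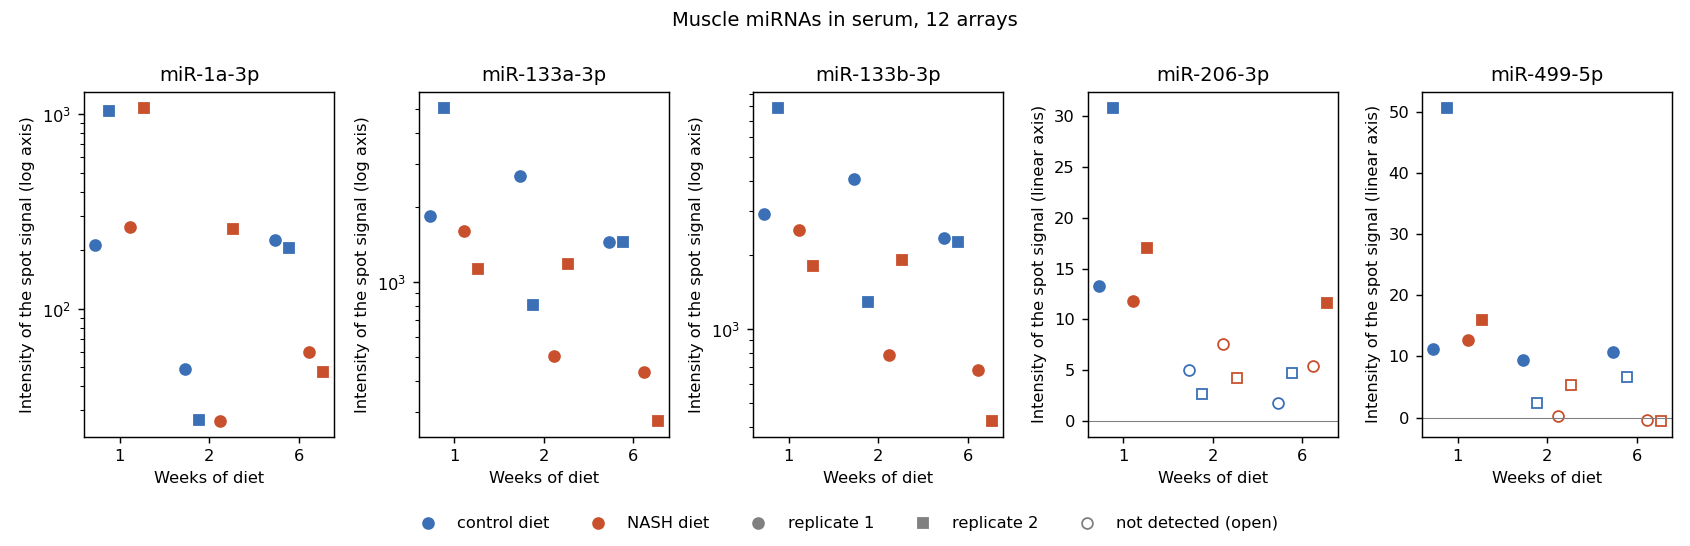
Background-subtracted intensity of each member's brightest probe on the 12 serum arrays (log axis for miR-1a-3p, miR-133a-3p and miR-133b-3p, linear axis for miR-206-3p and miR-499-5p) against weeks of diet; each point is 1 array, not scaled for array brightness, and open points were not detected. The week 6 NASH arrays of miR-133a-3p read 434 and 275 against 1447 and 1446 in controls. Those of miR-1a-3p read 59.7 and 47.0 against 226 and 204. At week 2 both miRNAs overlap between diets, and at week 1 miR-1a-3p does.

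By week, the miR-133a-3p difference was -1.42 at week 1 (95% interval -2.81 to -0.02, adjusted p = 0.447), -2.02 at week 2 (-3.41 to -0.62, adjusted p = 0.133) and -3.11 at week 6 (-4.51 to -1.72, adjusted p = 0.0216), all by limma. miR-133b-3p gave -1.41, -1.99 and -3.14, with an adjusted p of 0.0209 at week 6. At week 1, 0 of 5 members were called by limma among 1.41% of all miRNAs. 2 had an unadjusted p under 0.05, as did 46 of the 426 miRNAs tested. At week 2 the counts were 0 called, against 3.29% of all miRNAs, and 2 with such an unadjusted p, against 79 of the 426. At week 6, 2 of 5 members were called, both lower, beside 12.0% of all miRNAs in either direction and 6.57% lower. Each week compares 2 arrays with 2 arrays.

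The week 6 call rested on single arrays. Without control replicate 1 the miR-133a-3p difference at week 6 was -2.92 (limma adjusted p = 0.0884), and without NASH replicate 2 it was -2.61 (adjusted p = 0.144). With the replicate number as a block it was -3.50 (adjusted p = 0.263), with the percentile over all probes -2.37 (adjusted p = 0.165), and with no scaling -2.07 (adjusted p = 0.146). With no filter on dim miRNAs the difference stayed at -3.11 and its adjusted p was 0.144. miR-1a-3p differed by -3.07 at week 6 (95% interval -5.87 to -0.27), with a limma adjusted p of 0.150, and by -0.06 and 0.11 at weeks 1 and 2. The week 6 difference of miR-1a-3p was called in 3 alternatives: with only miRNAs detected on all 12 arrays (-3.07, adjusted p = 0.000567), with no common floor (-3.07, adjusted p = 0.0130) and with normexp background correction (-2.12, adjusted p = 0.00978).

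The growing size of the miR-133 difference with time did not pass a test. The limma F test of whether the diet effect differs between weeks gave an adjusted p of 0.726 for miR-133a-3p, miR-133b-3p and miR-1a-3p alike. 0 of 5 members passed it, against 0.469% of all miRNAs called. None had an unadjusted p under 0.05, against 28 of the 426 miRNAs tested. The difference at week 6 minus that at week 1 was -1.70 for miR-133a-3p (95% interval -3.67 to 0.27). On chow, miR-133a-3p at week 6 minus week 1 was 0.35 (SE 0.58, adjusted p = 1), and no member was called among 1.88% of all miRNAs. On the NASH diet the same step was -1.35 for miR-133a-3p and -2.72 for miR-1a-3p, each with a limma adjusted p of 0.361, and no member was called among 0.939% of all miRNAs. In these 2 comparisons 0 of 5 members had an unadjusted p under 0.05 by limma, against 61 of the 426 miRNAs on chow and 60 on the NASH diet. Serum weeks 1 and 2 were on one slide and week 6 on another, so in them the week and the slide cannot be told apart, whereas each weekly diet comparison lies within a slide.

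**Figure D2:**
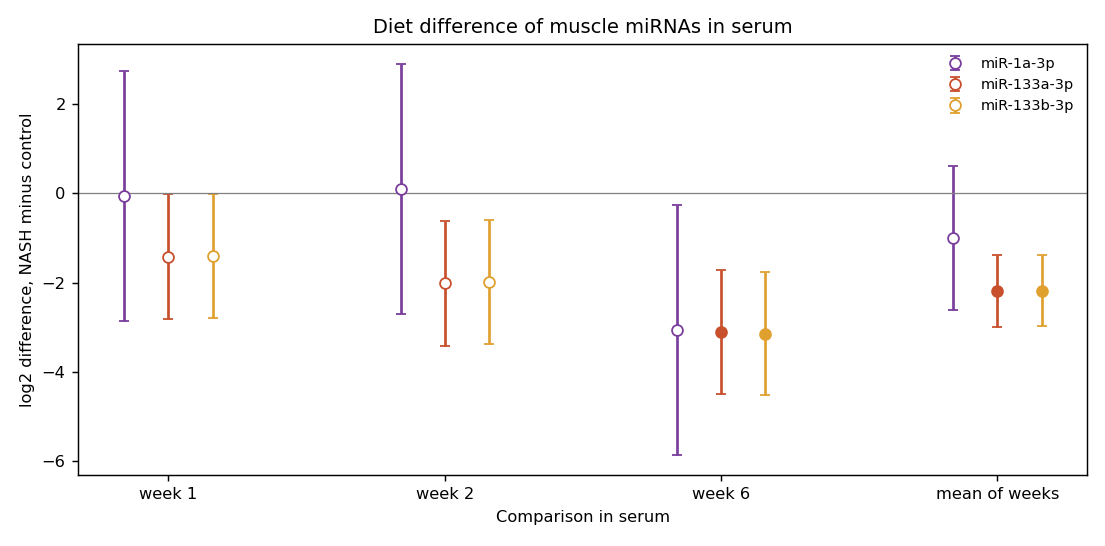
Log2 difference in serum, NASH minus control, of miR-1a-3p, miR-133a-3p and miR-133b-3p at each week (2 against 2 arrays) and as the mean of the weeks; bars are 95% intervals of the limma fit and filled points have an adjusted p below 0.05. The filled points are the miR-133 pair at week 6 (-3.11 and -3.14) and as the mean of weeks (-2.18).

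miR-206-3p, the skeletal muscle member, and miR-499-5p, the member tied to slow and cardiac myosin, were near the detection limit. miR-206-3p was detected on 5 serum arrays, namely all 4 of week 1 (13.3 and 30.8 in controls, 11.8 and 17.0 in NASH) and NASH replicate 2 of week 6 (11.6). Its other intensities ran from 1.80 to 7.53. Nearly all its scaled values lay at the floor set for dim probes, so its difference of -0.06 (limma adjusted p = 0.554) carries little information.

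miR-499-5p was detected on 4 of 6 control and 2 of 6 NASH arrays. Its intensities at week 1 were 11.3 and 50.7 in controls and 12.7 and 16.1 in NASH, and at week 2 they were 9.36 and 2.37 against 0.27 and 5.40. At week 6 they were 10.7 and 6.67 against -0.44 and -0.54. At week 6 neither NASH array and 1 of 2 control arrays detected it, and no fold is given. All 6 NASH values lay at the floor, and the difference over weeks was -0.31 (SE 0.20, limma adjusted p = 0.414, exact permutation p = 0.25). With no common floor it was -2.40 with an adjusted p of 0.000299, but this takes logs of NASH signals that were not above background at weeks 2 and 6 and gives no size. Neither miR-208a-3p nor miR-208b-3p, the heart references, was detected on any serum or liver array. miR-208a-5p, the opposite strand of the miR-208a hairpin, was detected on 4 serum arrays, 2 of them control, and on no liver array. Its serum difference was -0.13 (limma adjusted p = 0.554).

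Of 17 further muscle-linked miRNAs listed, 16 were on the array and 6 were detected on enough serum arrays to be tested. 2 were called lower, beside 13.8% of all miRNAs tested, and 0 higher. The median difference of the 6 was -0.55 against -0.11 for all miRNAs tested. Those called were both strands of miR-486, which is made in muscle and also abundant in red cells: miR-486a-5p differed by -1.57 (SE 0.19, limma adjusted p = 0.00389) and miR-486a-3p by -1.37 (SE 0.19, adjusted p = 0.00489). Neither kept its call with the percentile over all probes or with no scaling, and with the replicate block miR-486a-3p did not, at a difference of -1.41 (adjusted p = 0.0555). miR-133a-5p, the opposite strand of the miR-133a hairpin, was detected on 5 control and 3 NASH arrays and differed by -0.98 (adjusted p = 0.110). miR-378a-3p, made in muscle and other mitochondria-rich tissues, differed by -0.12 (adjusted p = 0.674), and its sign turned under other scalings.

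The scaling moved the level of all serum miRNAs. Over the 196 miRNAs detected on all 12 arrays the median difference was -0.29 as reported. It was 0.35 with the percentile over all probes, 0.44 with no scaling, 0.00 with median centring, 0.01 with quantile normalization, -0.15 with the hepatocyte miRNAs left out of the percentile, and -0.44 with normexp background correction. Relative to that median, miR-133a-3p was lower in all 7 settings: its difference minus the median was -1.89 as reported, -1.85 with all probes and -1.84 with no scaling, and between -2.13 and -1.51 under the other 4. In 6 of these 7 settings 2 miRNAs other than the miR-133 pair had a lower difference, and with normexp none did. Apart from quantile normalization and normexp, the settings differ by a single factor per array. Such a factor shifts all miRNAs alike except at the floor. The agreement of those settings relative to the median was thus fixed in advance and is no separate evidence. The calls over all miRNAs were 21 higher and 59 lower as reported, 32 and 7 with the percentile over all probes, 37 and 7 with no scaling, 35 and 40 with median centring, and 38 and 25 with quantile normalization. They were 27 and 44 without hepatocyte miRNAs in the percentile, and 15 and 351 with normexp.

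**Figure D3:**
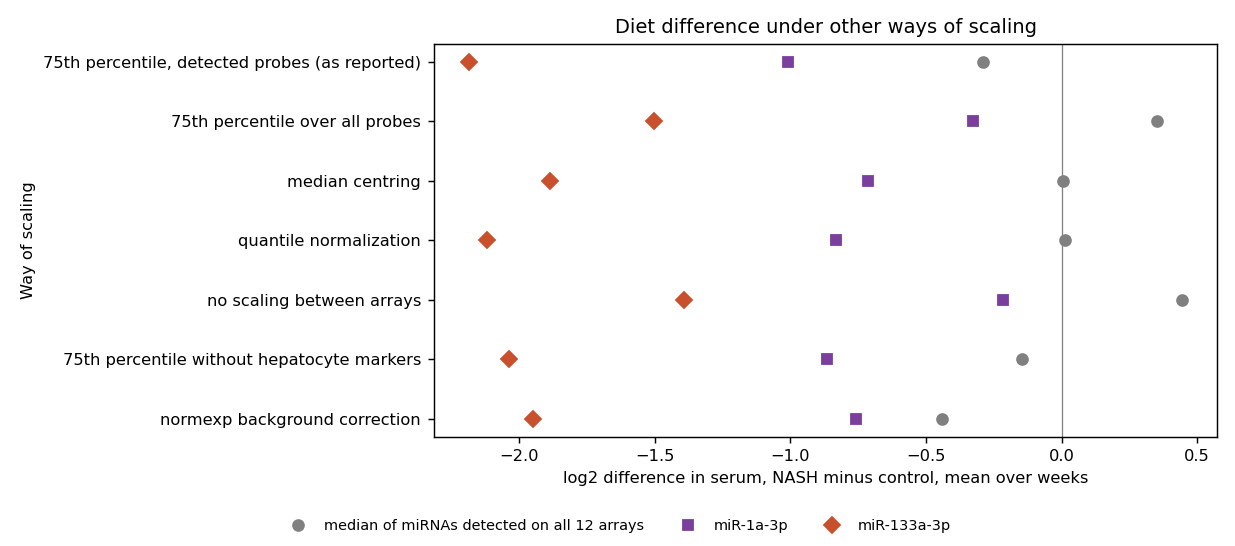
Mean diet difference in serum (log2, NASH minus control) of miR-133a-3p, of miR-1a-3p and of the median of the 196 miRNAs detected on all 12 arrays, under 7 ways of scaling or background correction. miR-133a-3p lies between -2.18 and -1.39, and the median between -0.44 and 0.44.

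Ratios within an array do not depend on the scaling and show unequal change only. Of 14 ratios of a detected member to another miRNA, 7 passed an exact permutation test after Benjamini-Hochberg adjustment over the 14. The log2 ratio of miR-133a-3p was lower in NASH by -1.99 to miR-16-5p and by -1.41 to miR-451a, both abundant in red cells, and by -6.00 to the hepatocyte miRNA miR-122-5p, each with an adjusted p of 0.0185 and no overlap between the diets. The same ratios of miR-133b-3p passed too, but the miR-133 pair counts as a single measurement. The ratio of miR-1a-3p to miR-122-5p also passed (-4.82). miR-122-5p itself differed by 3.82, so a ratio to it falls even where the member does not change. How often such ratios of other miRNAs pass was not tested. miR-133a-3p to miR-1a-3p was -1.18 (exact permutation p = 0.0833, adjusted p = 0.117), with weekly values of -1.36, -2.12 and -0.05. The ratio of miR-133a-3p to the epithelial miR-205-5p was 0.76 (adjusted p = 0.180). Without control replicate 1 of week 1, 3 of the 14 ratios passed.

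miR-1a-3p moved with the red cell miRNA miR-451a over the 12 serum arrays. Pearson's r was 0.85 (permutation p = 0.00029, adjusted over 8 relations 8e-04) and Spearman's rho 0.96 (permutation p = 1e-05, the smallest the permutations can give, adjusted 4e-05). These permutations exchanged the 12 arrays freely across diets, weeks and slides, so their p-values also reflect differences that groups share. Without the 2 arrays farthest from the median of miR-451a, r was 0.92. It was 0.91 among controls and 0.84 among NASH arrays (n = 6 each), 0.91 over the 8 arrays of weeks 1 and 2, and 0.84 after each group mean was subtracted. The last rests on 6 free values, since the 2 arrays of a group then mirror each other. Week 6 has only 4 arrays, too few for a value of its own.

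miR-133a-3p did so less clearly. Over the 12 serum arrays its r with miR-451a was 0.65 (permutation p = 0.0209, adjusted over 8 relations 0.0334). Spearman's rho was 0.51 (permutation p = 0.0928, adjusted 0.124), and r without the 2 farthest arrays was 0.19. These permutations were free across groups too, and r was 0.33 after each group mean was subtracted. As the levels of miR-133a-3p separate the diets, r with miR-451a was also taken within each diet. It was 0.03 in controls (exact permutation p = 0.936) and 0.77 in NASH (exact permutation p = 0.0667), with n = 6 each. Neither was below 0.05 after adjustment over the 8 relations within diets. Without the 2 farthest arrays these were 0.98 and 0.89 on 4 arrays, so the control value rests on those 2 arrays. Between miR-133a-3p and miR-1a-3p, r was 0.04 in controls and 0.68 in NASH (exact permutation p = 0.929 and 0.135). Whether the relations of miR-1a-3p and miR-133a-3p to miR-451a differ was not tested.

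**Figure D4:**
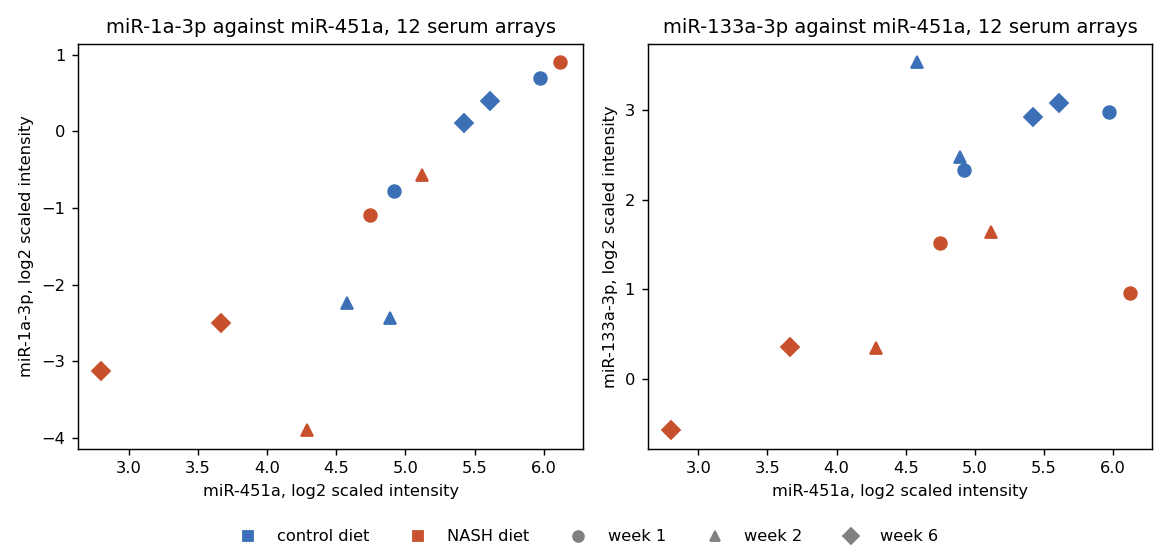
Log2 scaled intensity of miR-1a-3p (left) and miR-133a-3p (right) against that of the red cell miRNA miR-451a on the 12 serum arrays, coloured by diet and shaped by week. miR-1a-3p rises with miR-451a in both diets (r = 0.85 over all arrays). miR-133a-3p (r = 0.65 over all arrays) lies lower in all NASH arrays, at 1.63 at most, than in any control array, at 2.34 at least.

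Among 193 miRNAs detected on all 12 serum arrays, those most like miR-133a-3p by Pearson's r over the arrays were miR-214-3p (0.90), miR-486a-5p (0.89), miR-128-3p (0.89), miR-486a-3p (0.89) and miR-93-5p (0.87), beside a median r of 0.30. All 5 had a negative diet difference, which their selection favours, since miR-133a-3p itself separates the diets. With group means subtracted, their r ran from 0.02 to 0.47. After each group mean was subtracted, the list changed to miR-378a-5p (0.88), miR-378d (0.77), miR-378b (0.72), miR-378a-3p (0.71) and miR-712-5p (0.70), beside a median of -0.08. The first 4 of these belong to the miR-378 family, whose members are alike in sequence, so their signals need not be independent. For miR-1a-3p, added after its values were seen, the most alike over arrays were miR-20a-5p (0.87), miR-16-5p (0.85), miR-451a (0.85), miR-20b-5p (0.84) and let-7i-5p (0.82). After group means were subtracted they were let-7d-5p (0.90), miR-486a-3p (0.87), let-7f-5p (0.85), miR-451a (0.84) and let-7a-5p (0.84), so that of the 5 only miR-451a was in both lists. These correlations share arrays, scaling and diet groups, and are given as descriptions.

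Markers of other cell types moved in the same serum arrays, where 59 of the 426 miRNAs tested were called lower and 21 higher. Of 5 red cell miRNAs tested, 2 were lower, miR-144-3p and miR-486a-5p, and 0 higher in NASH. miR-486a-5p is also in the muscle-linked list, so the same call counts in both. miR-451a and miR-16-5p were not called (limma adjusted p = 0.198 and 0.679), nor was miR-92a-3p. The log2 of the summed level of the 5 ran from 5.21 to 6.27 in controls and from 3.93 to 6.34 in NASH (exact permutation p = 0.111). A haemolysis index, the log2 ratio of miR-451a to miR-23a-3p, ran from 1.14 to 2.57 against -0.25 to 3.57 (p = 0.417 by the exact permutation test). Both NASH arrays of week 6, where miR-1a-3p and miR-133a-3p were lowest or near it, had an index below 0, at -0.11 and -0.25. Of 6 epithelial miRNAs 3 were lower, with miR-205-5p at -2.95, and their summed level ran from -1.27 to 0.34 in controls and from -1.90 to -1.57 in NASH. Of 5 smooth muscle and fibroblast miRNAs 2 were lower, with miR-214-3p at -2.05, and their sum ran from -0.29 to 0.58 against -2.30 to -0.63. None of these lists had a member called higher.

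Of 7 hepatocyte miRNAs 5 were higher and 0 lower, with miR-122-5p at 3.82, and their sum ran from 0.03 to 2.16 in controls against 4.26 to 4.97 in NASH. 1 of 4 platelet miRNAs was lower, and neither of the endothelial ones was called (limma adjusted p = 0.177 and 0.720), with sums of 2.76 to 3.71 against 2.32 to 3.42 and of -0.88 to 1.23 against -2.31 to 0.00. By week, the log2 ratio of miR-133a-3p to miR-451a differed by -1.41, -1.98 and -0.83. At week 6 it was thus smaller than the -3.11 of miR-133a-3p itself, since miR-451a differed there by -2.29 (-0.01 at week 1 and -0.03 at week 2). The ratio to miR-16-5p, which differed by -1.01 at week 6, was -1.44, -2.43 and -2.10 by week, and the ratio to miR-205-5p was 2.22, 0.23 and -0.17. NASH arrays also detected more miRNAs (52 more on average, exact permutation p = 0.00926) and had a higher scaling percentile (0.79 on the log2 scale, exact permutation p = 0.0278). The percentile shift enters the scaled difference of miR-133a-3p over weeks, which was -2.18 as reported and -1.39 with no scaling. Beyond this and those ratios, the part of these shifts in the miR-133 difference was not tested. Control arrays lay in other slide columns than NASH arrays throughout, so the column and the diet cannot be told apart.

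In liver, the members were at background. miR-1a-3p read between 0.77 and 7.57 on the 6 control arrays and between -1.64 and 20.96 on the 6 NASH arrays, with a median of 2.06 and 1.39. miR-133a-3p read between 2.88 and 5.33 (median 3.80) in controls and between 2.45 and 9.39 (median 3.27) in NASH. miR-133b-3p read between 2.67 and 6.75 (median 4.47) in controls and between 2.47 and 14.1 (median 4.12) in NASH. The software detected these 3 on 1 array only, NASH week 1 replicate 1, and detected miR-206-3p and miR-499-5p on none. Both of those were below or near 0, from -4.66 to -1.32 and from -0.55 to 1.36.

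Since a miRNA had to be detected on at least 2 arrays to be tested, 0 of 5 members were among the 388 tested in liver, and neither the liver diet effect nor its difference from the serum effect has a value for them. Of the further muscle-linked miRNAs, miR-486a-5p and miR-378a-3p were detected on all 12 liver arrays. Their liver diet differences were -0.19 (adjusted p = 0.0975) and -0.08 (adjusted p = 0.741) by limma.

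On a scale shared by all 24 arrays, from the 162 probes well above background on each, control serum exceeded control liver by at least 43.6-fold for miR-1a-3p, 527-fold for miR-133a-3p and 830-fold for miR-133b-3p. With unscaled intensities, an alternative added after the data were seen, these bounds were 12.4-fold, 149.8-fold and 236-fold. Liver enters these bounds at the dimmest signal called above background, since no control liver array detected a member. The lowest serum intensities of miR-133a-3p (275) and miR-1a-3p (26.4) were above the highest in liver (9.39 and 20.96). The label reactions held 2.5 ng of serum RNA and 100 ng of liver RNA, so the scaled folds compare levels relative to each array's other miRNAs, and neither set compares amounts of RNA in the tissues.

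**Figure D5:**
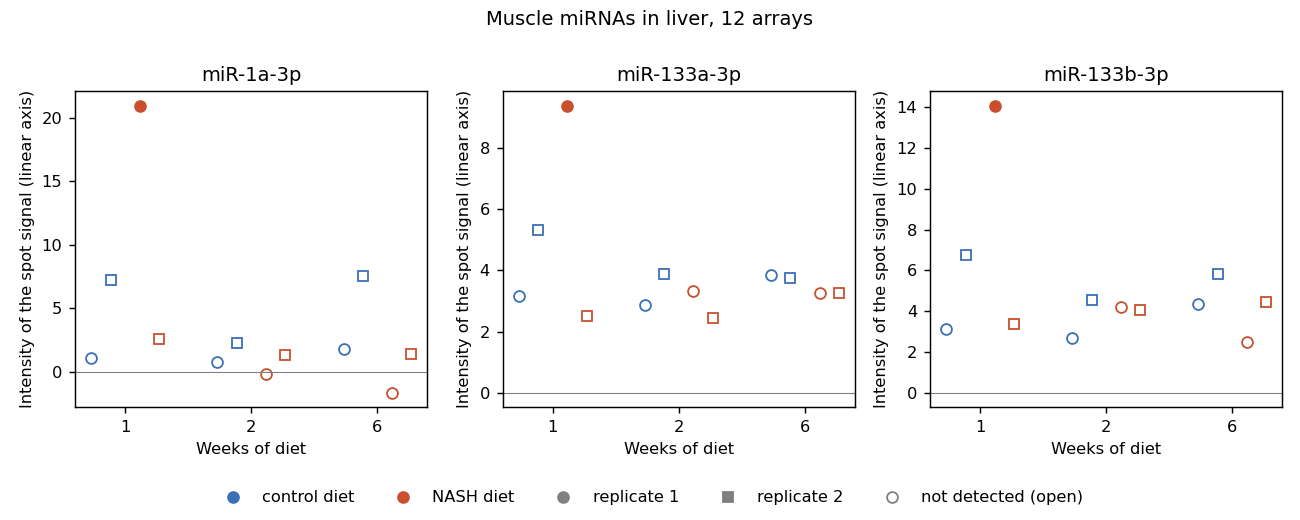
Background-subtracted intensity (linear axis) of miR-1a-3p, miR-133a-3p and miR-133b-3p on the 12 liver arrays against weeks of diet; each point is 1 array, and open points were not detected. The only detected array in each panel is NASH week 1 replicate 1, at 20.96, 9.39 and 14.1.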

How the data were processed

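miRNAs were measured in 12 serum and 12 liver samples. Spot intensity, background-subtracted and not normalized between arrays, was deposited as the output of Agilent Feature Extraction, per the file headers; the submitters' processing notes give version 11.5. The genome build and annotation of the arrays are not given in the sources used here. Control and outlier-flagged spots were dropped, the spots of a probe were averaged, and arrays were scaled to their 75th percentile over the probes that stood well above background on every array of the tissue (252 probes in serum, 298 in liver). A floor (log2 -4.71 in serum, -5.48 in liver, the 5th percentile of scaled signals above background) was set, log2 taken, and the brightest probe kept per miRNA. In serum 39.2% of tested values lay at the floor.

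miRNAs detected on at least 2 arrays (426 in serum, 388 in liver) were fitted with limma (version 3.58.1, R 4.3.3) as 6 group means with eBayes, and an adjusted p (Benjamini-Hochberg) below 0.05 counted as a call. The prior had 0.53 degrees of freedom against 6 residual ones, so that miRNAs at the floor on most arrays can get too small an error. Single values were tested by an exact permutation test (two-sided) that exchanged diets inside each week. Precision is limited by the 2 arrays per group.

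Replicate numbers coincide with the row on the slide. Arrays with the same number deviated from their group means with a correlation of 0.55 at serum week 1 and 0.14 at week 2. At serum week 6, where 1 NASH title has no number, it was 0.18. In liver these correlations were -0.60, 0.42 and 0.49. The numbers were taken to pair serum arrays. The fit with the replicate block used this pairing week by week, whereas the main fit and the exact permutation test did not. That unnumbered array, called replicate 1 here, was left out of the fit with the block.

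The members, lists and tests were chosen with earlier results of these data known. The named miRNAs were the members, the muscle-linked list, those most like miR-133a-3p in serum, and up to 2 examples per marker list. Alternatives concerned scaling, background, signal column, probes, floor, filter, variance model, replicate or row blocks, and single arrays left out. Mature sequences are from RefSeq (GRCm38.p6).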

Additional observations from a re-analysis of the deposited data

Results flagged for a closer look

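On the liver array NASH week 1 replicate 1, 3 members stood apart from the other 5 NASH liver arrays. miR-1a-3p read 20.96 there, and the next highest NASH array 2.61. miR-133a-3p read 9.39 against a next value of 3.34, and miR-133b-3p 14.1 against 4.46. The gap made up 0.81, 0.87 and 0.83 of the range of the 6 arrays. On that array miR-451a read 3580 and miR-205-5p 0.11, both within the range of the other liver arrays. Chance alone marks about 1 in 20 such groups, and the miR-133 signals are not independent of each other.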

How the results depend on the processing

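The miR-133a-3p difference over weeks kept its sign in 27 of 27 alternatives and its call in 24, from -2.40 to -1.39, and in 12 of 12 fits that left out an array. Of members called, 2 over weeks and 2 at week 6 as reported, the percentile over all probes, no scaling and the replicate block each gave 0 and 0, and no filter gave 0 at week 6. The replicate block changed no call of a member at week 1, week 2, between weeks or for time on a diet. Normexp, whose offset raises dim signals before scaling, gave 4 over weeks, 5 at week 6, 4 at week 2 (0 as reported) and 2 for control week 6 minus week 1 (0 as reported). No common floor gave 4 at week 6, 2 at week 2 and 1 for NASH week 6 minus week 1. Testing only miRNAs detected on all 12 arrays left 3 members, of which 3 were called over weeks, 3 at week 6, 2 at week 2 and 1 for NASH week 6 minus week 1. The total gene signal gave 1 at week 1 and 1 for control week 6 minus week 1. Leaving out an array gave 2 to 3 over weeks, 0 to 2 at week 6 (0 without control replicate 1 or NASH replicate 2), and 0 to 1 at week 1, between weeks and for control week 6 minus week 1, with 1 in each case without control week 1 replicate 1. For the ratios it gave 3 to 9, against 7. With no filter, 5 members entered the liver fits, with 0 called in each (limma, lowest adjusted p 0.924 over weeks), and 2 were called for serum minus liver, where the liver side lies at the floor.

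miR-378a-3p, at -0.12, changed sign to 0.56 with the percentile over all probes, 0.18 with median centring, 0.25 with quantile normalization, 0.67 with no scaling, 0.029 without hepatocyte miRNAs in the percentile and 0.029 with the total gene signal. Leaving out an array moved it from -0.25 to 0.016, the latter without control week 1 replicate 2. Where no value above shows the cause of a change, the cause was not tested. Signals near background limit miR-206-3p and miR-499-5p in serum and all 5 members in liver.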
